A study of Mus musculus with 7 samples.

Results

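The nonclassical MHC class I genes considered here are H2-Q4, H2-Q6 and H2-Q7 of the Qa region, H2-T22, H2-T23 and H2-T24 of the T region, H2-M3 and Cd1d1. They were chosen by symbol, as class I genes other than the classical H2-K1 and H2-D1, and are 8 of the 28233 genes measured. All 8 had a mean of at least 1 TPM (a relative abundance within a tumour that is scaled to transcript length) and so were among the 14954 genes tested. RNA came from whole subcutaneous tumours of B16mhgp100, a B16 mouse melanoma line whose name refers to the antigen gp100, grown in C57BL/6 mice. In the 4 Cr1l tumours (Cr1l 1 to Cr1l 4) the line over-expressed Cr1l, the gene of Crry, which restrains complement at the cell surface. The 3 Vec tumours (Vec 5, Vec 6 and Vec 7) carried the vector. The mice were given anti-PD1, which blocks an inhibitory receptor on T cells, in 4 doses of 200 µg from day 10 at 2 doses a week. Tumours were harvested 1 day after the antibody was last given. The question is how Cr1l tumours differed from Vec tumours under that antibody, and no tumour without it was among the samples. The host mice kept their own immune and stromal cells, so each value sums tumour cells and host cells. The labels do not say whether each line was 1 clone or a pool.

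Classical class I molecules carry peptides to CD8 T cells and are found on nearly all nucleated cells. Nonclassical ones have the same fold but vary little between mouse strains, and each is read by a narrower set of cells. Most pair with beta-2-microglobulin, the light chain encoded by B2m, and most of their genes lie in the MHC on chromosome 17. Interferon gamma raises the transcription of many class I genes through IRF factors and the coactivator NLRC5. In tumours, Qa-1 (the H2-T23 product) is known as the ligand of the inhibitory receptor CD94/NKG2A on NK and CD8 T cells, and CD1d presents lipids to NKT cells.

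In the GENCODE annotation of GRCm38, the members on chromosome 17 lie in the order H2-Q4, H2-Q6, H2-Q7, H2-T24, H2-T23, H2-T22 and H2-M3, and Cd1d1 lies on chromosome 3. RefSeq promoters of 300 bases (250 before and 50 after the start, GRCm38.p6) were at hand for 6 members, all but H2-T24 and Cd1d1, and are shown because the members did not move together. Stretches of 60 bases follow, 5′ to 3′ on the strand of the gene, starting 15 bases before the first match. Capitals mark an IRF-type match (GAAANNGAA or GAANNGAAA, searched on both strands) and a kappaB-type match (GGGGATTCC or GGGGATTTC, on both strands). The first 3 are from the Qa region, then come the T region genes, H2-M3 and, for comparison, the classical H2-K1.
H2-Q4, chr17:35379428-35379487, plus strand: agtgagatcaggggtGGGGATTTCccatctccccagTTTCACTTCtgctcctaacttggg
H2-Q6, chr17:35424662-35424721, plus strand: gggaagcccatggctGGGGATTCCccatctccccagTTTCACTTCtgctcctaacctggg
H2-Q7, chr17:35439007-35439066, plus strand: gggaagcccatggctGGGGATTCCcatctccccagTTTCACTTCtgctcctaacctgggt
H2-T22, chr17:36042888-36042947, minus strand: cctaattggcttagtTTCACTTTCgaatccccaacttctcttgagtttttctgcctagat
H2-T23, chr17:36032780-36032839, minus strand: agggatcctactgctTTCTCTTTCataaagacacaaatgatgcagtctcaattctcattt
H2-M3, chr17:37270118-37270177, plus strand: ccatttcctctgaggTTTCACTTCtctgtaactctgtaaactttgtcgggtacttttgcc
H2-K1, chr17:34000414-34000473, minus strand: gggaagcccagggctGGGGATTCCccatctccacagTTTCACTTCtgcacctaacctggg

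The IRF-type letters stood in all 6 promoters, and in 14.9% of 27025 RefSeq promoters of the same length. The kappaB-type letters stood in 3 of the 6, those of H2-Q4, H2-Q6 and H2-Q7, and in 0.455% of all promoters. These 3 stretches resemble one another and hold both strings searched, so they are not separate matches to set against that share. H2-T22, H2-T23 and H2-M3 had no exact match to the kappaB-type letters, and near matches were not searched. Whether these letters bear on the levels of the members was not tested. A match describes the letters in the window and is not a site of binding.

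Several members share transcript sequence, which matters because their reads can be split between copies. Of all 50-base windows of the longest coding transcript (GENCODE, GRCm38), 44.7% of H2-T22 stood letter for letter in another gene, most of them in H2-T10 (37.9% of windows). The share was 39.2% for H2-Q4, 35% for H2-Q6 and 34.9% for H2-Q7, with 19.3% of the H2-Q7 windows in H2-Q6. It was 29.8% for H2-T23 and 25.8% for Cd1d1, whose shared windows all stood in Cd1d2. H2-T24 and H2-M3 were the most distinct, at 3.23% and 0.576%. With windows of 100 bases no member passed 16.4%, the value of H2-Q7. The levels of H2-Q4, H2-Q6, H2-Q7, H2-T22, H2-T23 and Cd1d1 are therefore uncertain as far as the counting split shared reads. The libraries kept no strand, so where transcripts overlap, reads of an antisense gene cannot be told apart from reads of a member. Gm11131 overlaps H2-Q4 on the other strand, and A930015D03Rik overlaps H2-T22, H2-T23 and H2-T24. These are overlaps of whole gene spans, introns included. The windows were searched on both strands, and 16.1% of the 50-base windows of H2-Q4 stood in Gm11131. A930015D03Rik was not among the genes sharing most windows with H2-T22, H2-T23 or H2-T24. Of the 100-base windows of H2-T24, 0% stood in another gene.

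The tumours differed in make-up within each group. Cr1l stood at 76.4 to 83.6 TPM in Cr1l tumours, against 46.3 to 54.9 TPM in Vec tumours. The 7 melanocyte markers, which define the line, summed to 8872 to 19764 TPM in Cr1l tumours, against 12899 to 20010 TPM in Vec tumours. On the first principal component, which held 49.5% of the variance, Cr1l 3 and Cr1l 4 stood at 82.2 and 67.1, apart from the other 5 tumours at -56.9 to -14.9. Red cell markers (4 of 4, none at 0) summed to 106 to 387 TPM in Cr1l tumours, against 415, 41197 and 9667 TPM in Vec 5, Vec 6 and Vec 7. Keratinocyte markers (4 of 4, with Krt5, Krt14 and Krt1 at 0 in at least 1 tumour) summed to 0.41 to 44.2 TPM in Cr1l tumours and 7.58 to 840 TPM in Vec tumours, with the highest sum in Vec 6. The titles of Vec 6 and Vec 7 also carry a number of unstated meaning. The part of these differences in the values of the members was not tested. Values without Cr1l 3 and Cr1l 4 are given beside many of the results below, and values without Vec 6 and Vec 7 beside the counts of members and their calls. Both exclusions were chosen after the data were seen. In bulk RNA, fewer cells of a type and less RNA per cell cannot be told apart.

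The 8 genes spanned a wide range of abundance. Over all 7 tumours the mean level per length was 438.6 TPM for H2-Q4, 267.7 TPM for H2-T22, 239.4 TPM for H2-T23, 93.2 TPM for H2-Q7, 56.7 TPM for H2-Q6, 28.7 TPM for H2-M3, 9.25 TPM for H2-T24 and 7.30 TPM for Cd1d1. The ranges of all neighbours in that order overlapped. Within tumours, H2-Q4 was above H2-T22 in 7 of 7, H2-T22 above H2-T23 in 5, H2-Q7 above H2-Q6 in 7 and H2-T24 above Cd1d1 in 4. The order differed between the groups. In Cr1l tumours H2-T23 (242.0 ± 158 TPM, SD, n = 4) came second, above H2-T22 (206.1 ± 73.3 TPM), although only 2 of 4 tumours had them in that order, and every pair of neighbours overlapped. In Vec tumours the order was H2-Q4, H2-T22, H2-T23, H2-Q7, H2-Q6, H2-M3, Cd1d1 and H2-T24, and ranges overlapped only between H2-Q7 and H2-Q6 and between H2-Q6 and H2-M3.

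**Figure D1:**
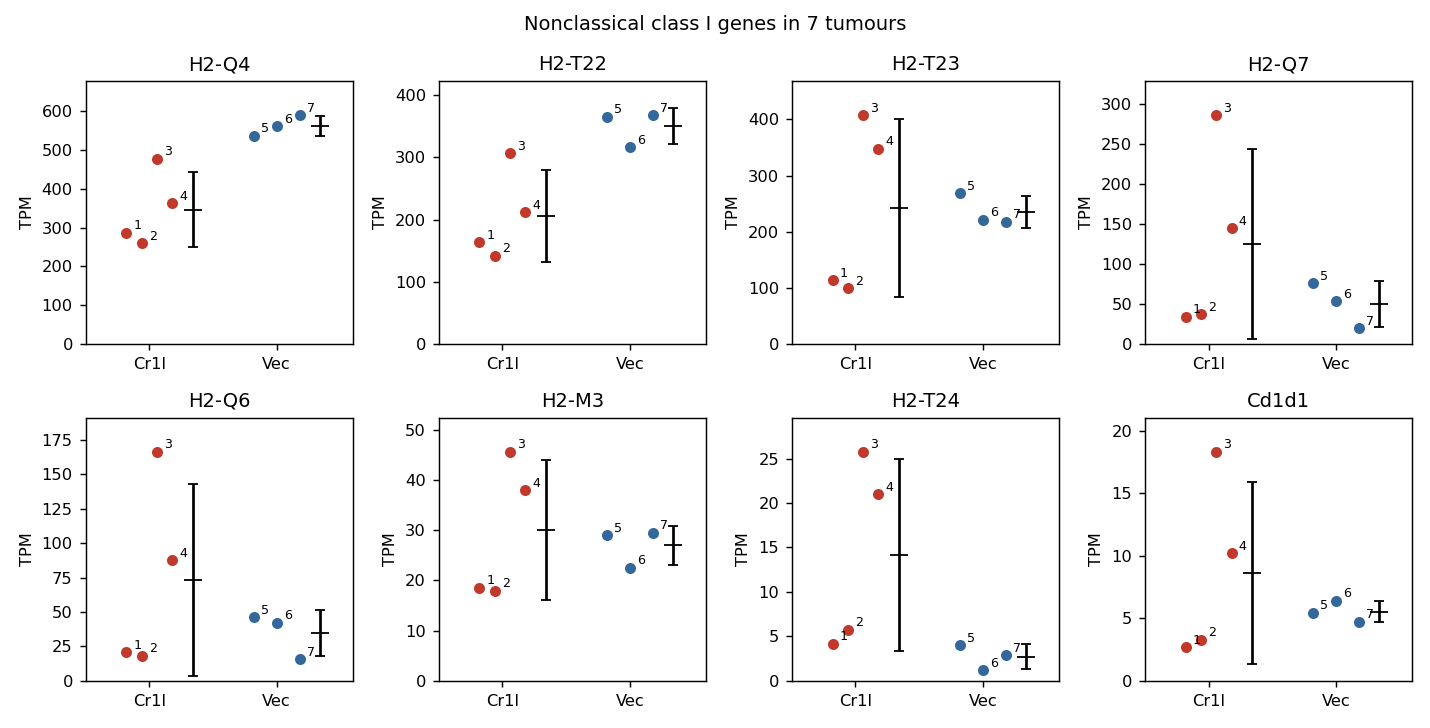
TPM of each nonclassical class I gene in each tumour, Cr1l left (n = 4) and Vec right (n = 3), with 1 point per tumour, its number beside it, and bars at the group mean ± SD. H2-Q4 and H2-T22 were lower in all 4 Cr1l tumours than in any Vec tumour, H2-T24 was higher in all 4, and the other members overlapped, with Cr1l 3 and Cr1l 4 above the other tumours.

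H2-Q4 and H2-T22, the most abundant members, were lower in the Cr1l tumours, to about the same degree. H2-Q4, a heavy chain of the Qa region, stood at 287, 259.6, 477 and 362 TPM in Cr1l 1 to 4, against 537, 560.4 and 588 TPM in Vec 5 to 7. All 4 Cr1l tumours were below all 3 Vec tumours, Cr1l 1 and Cr1l 2 the furthest. The means were 346.3 ± 97.0 TPM (SD, n = 4) in Cr1l tumours and 561.8 ± 25.9 TPM (SD, n = 3) in Vec tumours, a log2 fold change of -0.74 (SE 0.21, 95% interval -1.22 to -0.25). The unadjusted p was 0.00796 and the adjusted p over all genes 0.225 by limma, so the difference did not pass the threshold of 0.05. The exact permutation test gave a two-sided p of 0.0571, where 0.0286 is the smallest that 4 against 3 tumours allows. The antisense Gm11131 was at 1.46, 1.62, 3.19 and 2.00 TPM in Cr1l tumours, against 1.48, 1.10 and 2.26 TPM in Vec tumours, far under H2-Q4 in every tumour.

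H2-T22 encodes, with its near copy H2-T10, a class I molecule that binds no peptide and is recognised by a subset of gamma delta T cells. It stood at 164, 142, 307 and 212 TPM in Cr1l 1 to 4, against 366, 316 and 368 TPM in Vec 5 to 7. The groups did not overlap, although Cr1l 3 came close to Vec 6. The means were 206.1 ± 73.3 TPM (SD, n = 4) in Cr1l tumours and 349.9 ± 29.0 TPM (SD, n = 3) in Vec tumours, a log2 fold change of -0.82 (SE 0.25, interval -1.41 to -0.24). The unadjusted p was 0.0121 and the adjusted p 0.238 by limma, and the exact permutation p was 0.0571. H2-T10 had 18.6, 15.7, 26.3 and 21.6 TPM in Cr1l tumours, against 29.2, 29.2 and 37.6 TPM in Vec tumours, and likewise did not overlap. Its log2 fold change was -0.63 (SE 0.20, limma adjusted p = 0.244). The ratio of H2-T22 to H2-T10, which moves if reads are split differently between them, was 8.80 to 11.7 in Cr1l tumours and 9.77 to 12.5 in Vec tumours. Without Vec 6 and Vec 7 the unadjusted limma p was 0.123 for H2-Q4 and 0.0994 for H2-T22, with Vec 5 as the lone Vec tumour assumed to vary like the others. Without Cr1l 3 and Cr1l 4 the adjusted p was 0.0609 for both.

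H2-T24 was the member with the largest log2 fold change in size and the only one higher in every Cr1l tumour than in every Vec tumour. It stood at 4.16, 5.78, 25.7 and 21.0 TPM in Cr1l 1 to 4, against 4.02, 1.21 and 2.86 TPM in Vec 5 to 7. The separation was narrow, at 4.16 TPM in Cr1l 1 against 4.02 TPM in Vec 5, and most of the difference in means lay in Cr1l 3 and Cr1l 4. The means were 14.2 ± 10.8 TPM (SD, n = 4) in Cr1l tumours and 2.70 ± 1.41 TPM (SD, n = 3) in Vec tumours, a log2 fold change on the log2(TPM + 1) scale of 1.77 (SE 0.63, interval 0.32 to 3.23). The unadjusted p was 0.0231 and the adjusted p 0.270 by limma, and the exact permutation p was 0.114. Without Cr1l 3 and Cr1l 4 the log2 fold change was 0.76 (unadjusted p = 0.102 by limma), and with a pseudocount of 5 in place of 1 it was 1.14. The unadjusted limma p was 0.0572 without Cr1l 4, 0.0904 without Vec 6, and 0.284 without Vec 6 and Vec 7.

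A930015D03Rik, whose gene span overlaps that of H2-T24, had 8.15, 10.7, 15.1 and 10.41 TPM in Cr1l tumours, against 7.01, 3.57 and 4.46 TPM in Vec tumours. It too was higher in every Cr1l tumour, with a log2 fold change of 1.02 (SE 0.27, limma adjusted p = 0.215). The ratio of H2-T24 to A930015D03Rik was 0.510, 0.539, 1.70 and 2.01 in Cr1l tumours, against 0.573, 0.339 and 0.641 in Vec tumours. That ratio can move through either transcript. The gene span of A930015D03Rik also overlaps that of H2-T22, which was lower in the Cr1l tumours. Neither point decides how far antisense reads enter the H2-T24 values, which was not tested.

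H2-Q6 and H2-Q7 encode Qa-2, a class I molecule held in the membrane mainly by a lipid anchor, and their values spread widely within both groups. H2-Q7 stood at 34.1, 37.4, 286 and 145 TPM in Cr1l 1 to 4, against 76.3, 53.9 and 19.7 TPM in Vec 5 to 7. Cr1l 3 and Cr1l 4 were above all Vec tumours, while Cr1l 1 and Cr1l 2 lay between Vec 7 and Vec 6. The log2 fold change was 0.96 (SE 0.81, interval -0.90 to 2.83, limma adjusted p = 0.563), within the spread between tumours. H2-Q6 stood at 20.8, 18.4, 166 and 87.6 TPM in Cr1l tumours, against 46.2, 42.1 and 15.6 TPM in Vec tumours. Its tumours fell in nearly the same order as those of H2-Q7, and its log2 fold change was 0.63 (SE 0.80, interval -1.22 to 2.48, limma adjusted p = 0.707). Both signs turned without Cr1l 3 and Cr1l 4, to -0.28 for H2-Q7 and -0.65 for H2-Q6. From the lowest to the highest tumour, H2-Q7 varied 14.5-fold and H2-Q6 10.63-fold, against 2.27-fold for H2-Q4 in the same region. The ratio of H2-Q7 to H2-Q6 was 1.64 to 2.04 in Cr1l tumours and 1.26 to 1.65 in Vec tumours.

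H2-Q5, a further gene of the Qa region that shares 15.2% of the H2-Q7 windows, stood at 5.46, 6.13, 55.0 and 43.8 TPM in Cr1l tumours, against 12.5, 15.4 and 5.03 TPM in Vec tumours. It had the same 2 tumours on top and Vec 7 at the bottom, as H2-Q6 and H2-Q7 had, and its log2 fold change of 0.74 (SE 0.85) was within the spread between tumours and was -0.70 without Cr1l 3 and Cr1l 4.

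H2-T23 encodes Qa-1, which carries leader peptides of other class I chains to CD94/NKG2A. It stood at 113, 99.6, 407 and 348 TPM in Cr1l 1 to 4, against 269, 221 and 218 TPM in Vec 5 to 7. The Cr1l tumours fell on both sides of the Vec tumours, 2 below and 2 above. The means of 242.0 ± 158 TPM (SD, n = 4) in Cr1l tumours and 236.0 ± 28.3 TPM (SD, n = 3) in Vec tumours were close, but the log2 fold change of -0.23 (SE 0.51) had an interval of -1.41 to 0.95, which allows a large change either way (limma adjusted p = 0.840). It was 0.04 without Cr1l 1, 0.10 without Cr1l 2, and -1.14 without Cr1l 3 and Cr1l 4. The receptor chains were low. Klrc1, which encodes NKG2A, stood at 0.67, 0.70, 6.58 and 2.31 TPM in Cr1l tumours, against 3.84, 1.75 and 2.07 TPM in Vec tumours. Klrd1, which encodes its partner CD94, stood at 2.45, 2.36, 20.4 and 16.4 TPM in Cr1l tumours, against 1.87, 2.73 and 2.40 TPM in Vec tumours. Both were highest in Cr1l 3, the tumour with the most H2-T23, and the groups overlapped for both. Their log2 fold changes were -0.25 and 1.29, and -1.03 and 0.04 without Cr1l 3 and Cr1l 4.

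H2-M3 presents peptides that begin with formyl methionine, as bacterial and mitochondrial proteins do. It stood at 18.6, 17.9, 45.5 and 37.9 TPM in Cr1l 1 to 4, against 29.0, 22.5 and 29.5 TPM in Vec 5 to 7. As for H2-T23, the Cr1l tumours enclosed the Vec tumours from both sides, and the log2 fold change of 0.04 (SE 0.35, interval -0.76 to 0.84, limma adjusted p = 0.961) was within the spread. Its sign turned under several alternatives, to -0.53 without Cr1l 3 and Cr1l 4.

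Cd1d1 encodes CD1d, the lipid-presenting molecule of NKT cells, and had the lowest mean level of the members over all 7 tumours and in Cr1l tumours, while H2-T24 was lowest in Vec tumours. It stood at 2.7, 3.3, 18 and 10 TPM in Cr1l 1 to 4, against 5.5, 6.4 and 4.7 TPM in Vec 5 to 7. Cr1l 1 and Cr1l 2 were below and Cr1l 3 and Cr1l 4 above every Vec tumour. The log2 fold change was 0.24 (SE 0.56, interval -1.07 to 1.55, limma adjusted p = 0.850), and -0.70 without Cr1l 3 and Cr1l 4.

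**Figure D2:**
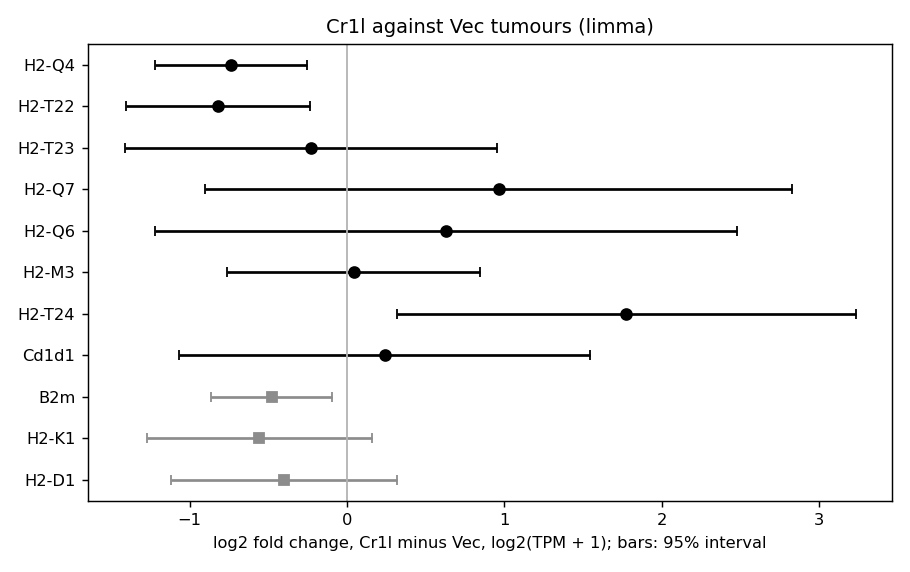
Log2 fold change of each member (log2(TPM + 1) scale, Cr1l minus Vec) with its 95% interval from limma (bars, n = 4 and 3, grey line at 0), beside B2m, H2-K1 and H2-D1 (grey squares). The intervals of H2-Q4 (-1.22 to -0.25), H2-T22 (-1.41 to -0.24) and H2-T24 (0.32 to 3.23) leave out 0 before adjustment, and those of the other 5 members include it.

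Counted over the 8 members, 0 passed an adjusted p of 0.05 in either direction by limma, against 2 of the 14954 genes tested (0.0134%). At an unadjusted p under 0.05, 1 member was higher, H2-T24, and 2 were lower, H2-Q4 and H2-T22. The shares over all genes tested were 9.49% higher and 6.07% lower. Groups did not overlap in the same 3 members, against 9.29% of all genes with every Cr1l tumour higher and 6.67% with every Cr1l tumour lower. The median log2 fold change was 0.14 over the members and 0.05 over all genes tested, and 5 of 8 members and 55.4% of all genes were positive. Cr1l 3 and Cr1l 4, picked after the data were seen, were the 2 highest tumours in 6 of 8 members. Leaving them out lowers the Cr1l means of those members by construction, so the counts that follow are no test of them. When Cr1l 3 and Cr1l 4 were left out, 1 of 8 members was positive (H2-T24), against 59.5% of the 14474 genes then tested. At an unadjusted p under 0.05 by limma, 0 members were higher and 5 lower, against 1239 and 761 of those genes. The median was -0.68 over the members and 0.08 over those genes. Without Vec 6 and Vec 7 the counts at that p were 0 in both directions by limma. In the authors' deposited table, 1 of the 8 members passed an adjusted p of 0.05 as higher in Cr1l tumours, against 4.74% of 18297 genes, and 0 as lower, against 2.27%. That member was H2-T24, with a log2 fold change of 2.39 (SE 0.67) at adjusted p = 0.0121 in the authors' deposited table. The authors' deposited table listed H2-Q4 at a log2 fold change of -0.75 (adjusted p = 0.0765). H2-T22 was listed in the authors' deposited table at -0.81 (adjusted p = 0.0946). For the other 5 members the adjusted p in the authors' deposited table was 0.285 to 0.999.

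The levels of the members can also be set against classical class I in the same tumour. B2m, the common light chain, stood at 3995, 3761, 4736 and 4348 TPM in Cr1l tumours, against 6041, 4794 and 6885 TPM in Vec tumours. The groups did not overlap, by a narrow margin (4736 in Cr1l 3 against 4794 in Vec 6), with a log2 fold change of -0.48 (SE 0.17, limma adjusted p = 0.264) and an exact permutation p of 0.0286. H2-K1 stood at 1848, 1695, 4045 and 3236 TPM in Cr1l tumours, against 3541, 3793 and 3843 TPM in Vec tumours, and the groups overlapped (log2 fold change -0.56, SE 0.31, limma adjusted p = 0.402). Without Cr1l 3 and Cr1l 4 it was -1.07 (limma adjusted p = 0.0609). H2-D1 overlapped as well, with a log2 fold change of -0.40 (limma adjusted p = 0.531), and -0.90 without Cr1l 3 and Cr1l 4 (limma adjusted p = 0.141).

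Relative to the mean log2 level of H2-K1, H2-D1 and B2m within each tumour, H2-Q4 was at -2.83 ± 0.10 in Cr1l tumours (SD, n = 4) and -2.57 ± 0.14 in Vec tumours (SD, n = 3), on the log2 scale. H2-T22 was at -3.60 ± 0.11 in Cr1l tumours and -3.26 ± 0.05 in Vec tumours. For both, the Cr1l tumours were lower with no overlap, by 0.26 and 0.34, which is less than their differences in level. H2-M3, whose levels overlapped, was at -6.39 ± 0.23 in Cr1l tumours and -6.91 ± 0.08 in Vec tumours, and so was higher relative to classical class I in all 4 Cr1l tumours. H2-T24 was at -7.65 ± 0.77 in Cr1l tumours and -9.90 ± 0.49 in Vec tumours, also with no overlap. The differences of H2-T23 (0.25), Cd1d1 (0.72), H2-Q6 (1.11) and H2-Q7 (1.44) overlapped between the groups. These ratios show unequal change within a tumour and do not tell which of the genes changed. The log2 fold changes in level were 0.04 for H2-M3 and -0.56, -0.40 and -0.48 for H2-K1, H2-D1 and B2m. A gene of unchanged level is thus higher in Cr1l tumours on this scale. The share of all genes with no overlap on it was not counted.

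**Figure D3:**
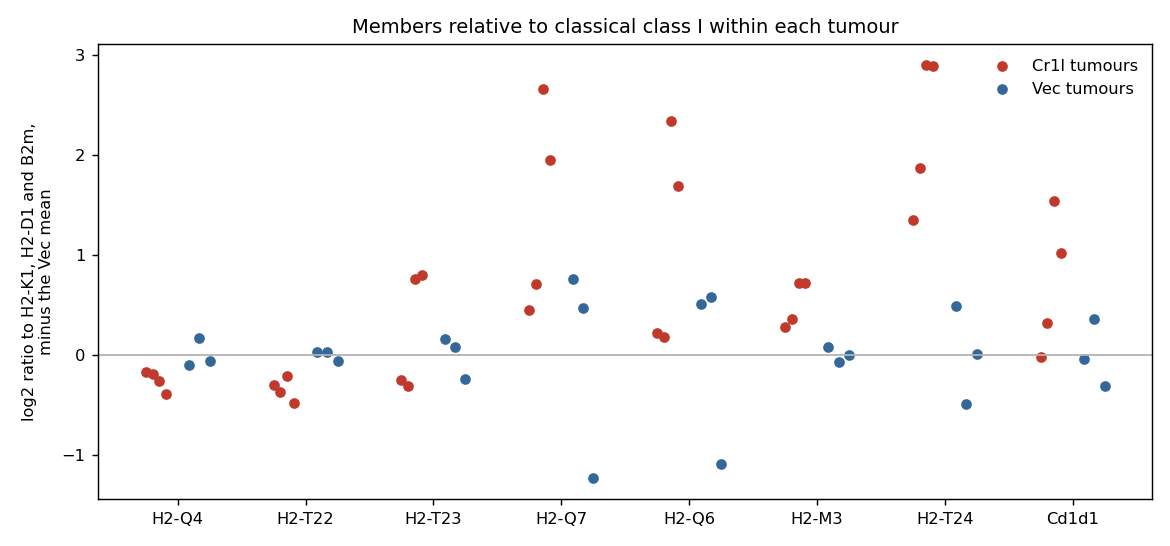
Log2 level of each member minus the mean log2 level of H2-K1, H2-D1 and B2m in the same tumour, shown as the difference from the mean of the Vec tumours (grey line at 0), with Cr1l tumours (red) left of Vec tumours (blue) and 1 point per tumour. H2-Q4 and H2-T22 were lower in every Cr1l tumour, H2-T24 and H2-M3 higher, and the other members overlapped.

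The make-up of the nonclassical transcripts also differed between tumours. The 8 members summed to 645, 584, 1733 and 1223 TPM in Cr1l 1 to 4, against 1332, 1224 and 1246 TPM in Vec 5 to 7, so the Vec tumours lay within the range of the Cr1l tumours. H2-Q4 gave 44.5%, 44.5%, 27.5% and 29.6% of that sum in Cr1l tumours, against 40.3%, 45.8% and 47.2% in Vec tumours. H2-Q6 and H2-Q7 together gave 8.51%, 9.56%, 26.1% and 19.0% in Cr1l tumours, against 9.20%, 7.84% and 2.83% in Vec tumours. Cr1l 3 and Cr1l 4 thus had a smaller share of H2-Q4 and a larger share of H2-Q6 and H2-Q7 than the other 5 tumours, while Cr1l 1 and Cr1l 2 lay within or close to the range of the Vec tumours in both shares. H2-T23 was 0.395, 0.384, 0.855 and 0.961 times H2-Q4 in Cr1l tumours, against 0.501, 0.395 and 0.371 times in Vec tumours.

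The order of the tumours in H2-Q7 was that of leukocyte transcripts. Ptprc, Laptm5 and Coro1a, which are expressed across leukocytes, summed to 78.3, 106, 823 and 536 TPM in Cr1l 1 to 4, against 235, 123 and 60.8 TPM in Vec 5 to 7, with none of the 3 listed at 0. All 7 tumours had the same rank in H2-Q7 as in this sum, and 5 of 7 had in H2-Q6 and H2-T23. The count was 3 for H2-M3, 2 for H2-Q4, H2-T24 and Cd1d1, and 1 for H2-T22. It leaves out tumours that were 1 place off, so it does not rank the members by likeness to the leukocyte order. Cd1d1 fell in the order Cr1l 3, Cr1l 4, Vec 6, Vec 5, Vec 7, Cr1l 2 and Cr1l 1. H2-Q4, with the same count, fell in the order Vec 7, Vec 6, Vec 5, Cr1l 3, Cr1l 4, Cr1l 1 and Cr1l 2. Cr1l 3 and Cr1l 4 were the 2 highest tumours in 6 of 8 members, all but H2-Q4 and H2-T22. Cr1l 1 and Cr1l 2 were the 2 lowest in 5 of 8, including H2-Q4, H2-T22 and H2-T23, although Vec 7 and not these tumours had the lowest leukocyte sum. How many of all genes tested had such orders was not counted, so they are not shown to be particular to the members. Rassf5 and Il2rg, for example, fell in the same order as H2-Q7.

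The macrophage list (10 of 10 genes, none at 0) summed to 576 to 5725 TPM in Cr1l tumours and 495 to 1501 TPM in Vec tumours. The T cell list (7 of 7, none at 0) summed to 10.32 to 153 TPM in Cr1l tumours and 14.7 to 30.9 TPM in Vec tumours. The NK cell list (5 of 5, with Ncr1 at 0 in at least 1 tumour) summed to 5.12 to 73.1 TPM in Cr1l tumours and 4.01 to 6.50 TPM in Vec tumours. The B and plasma cell list (6 of 6, with Ms4a1 and Mzb1 at 0 in at least 1 tumour) did not overlap between the groups, at 11.1 to 90.2 TPM in Cr1l tumours and 2.24 to 3.14 TPM in Vec tumours. The fibroblast list (5 of 5, none at 0) summed to 694 to 5841 TPM in Cr1l tumours and 132 to 1121 TPM in Vec tumours. Within the 3 Vec tumours, the macrophage, leukocyte and fibroblast sums fell in the order Vec 5, Vec 6, Vec 7, as H2-Q7 and H2-T23 did. The part of these cells in the values of any member was not tested.

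**Figure D4:**
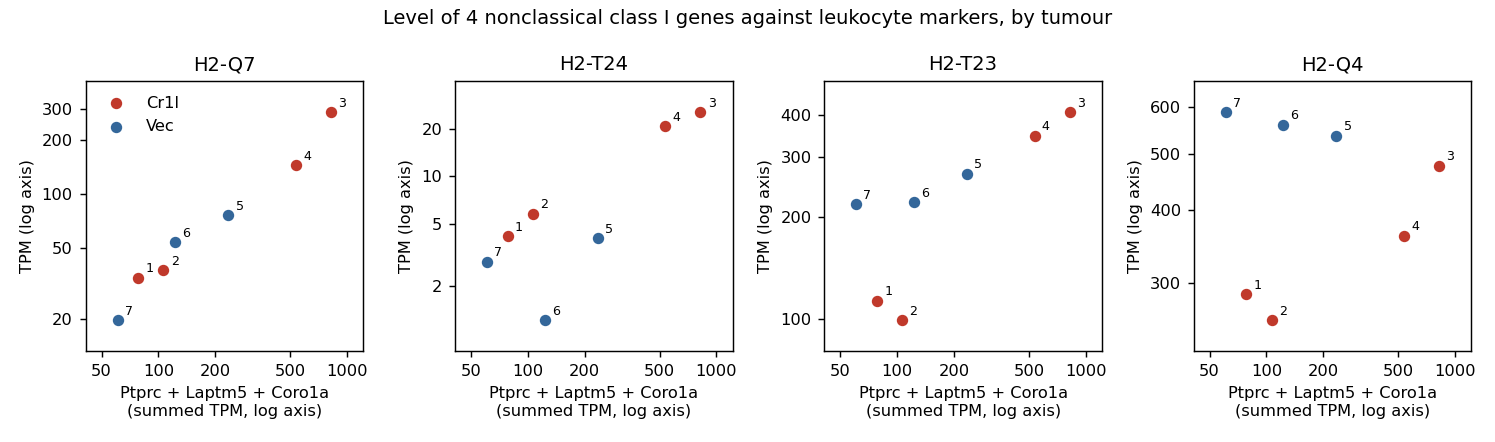
TPM of H2-Q7, H2-T24, H2-T23 and H2-Q4 in each tumour against the summed TPM of Ptprc, Laptm5 and Coro1a, both on log axes, with tumour numbers beside the points. H2-Q7 follows 1 order over both groups, from Vec 7 (19.7 TPM) to Cr1l 3 (286 TPM), whereas the H2-Q4 points of the Cr1l tumours all lie under those of the Vec tumours.

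The genes whose pattern was most like each member, by Pearson's r of log2(TPM + 1) over the 7 tumours, differed between members. For H2-Q4 they were Psme1 (r = 0.991), a subunit of the proteasome activator PA28, the member H2-T22 (0.988) and Psmb10 (0.982), a subunit of the immunoproteasome. For H2-T22 they were Phf11d (0.989), H2-Q4 (0.988) and Dhx58 (0.987), which encodes the RNA sensor LGP2. H2-Q7 was most like Rassf5 (0.999), Il2rg (0.997), the common gamma chain of cytokine receptors, and Arhgap25 (0.996). H2-Q6 was most like Cyp4f18 (0.995), Nfatc1 (0.995) and Klrk1 (0.994), which encodes the NKG2D receptor. H2-Q4 and H2-T22 were thus among the 3 nearest genes of each other. For H2-T23 the nearest genes were Mndal (0.997), H2-DMa (0.991) and Bscl2 (0.986). For H2-T24 they were Saa3 (0.997), an acute phase protein, Slc37a2 (0.997) and Snap23 (0.995). H2-M3 had Chpf2 (0.977), Slc12a9 (0.976) and Dock10 (0.972), and Cd1d1 had Tspo (0.995), Gbp8 (0.990) and Xlr4b (0.989). With 7 tumours, of which Cr1l 3 and Cr1l 4 stand apart, high values are common. Over the other 5 tumours the r was 0.997 for H2-Q4 with Psme1, 0.988 for H2-Q4 with H2-T22 and 0.998 for H2-Q7 with Rassf5. It was 0.928 for H2-M3 with Dock10. The pairs were picked for a high r over 7 tumours that include these 5, so these values are no separate check.

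Genes around the members, taken from lists chosen for their role, give the setting. Of 17 genes of classical class I and peptide loading, 16 were tested, and 14 had a negative log2 fold change, against 6673 of the 14954 genes tested. Their median was -0.45, against 0.05 over all genes. At an unadjusted p under 0.05, 3 were lower (Psmb10, Psme1 and B2m) and 0 higher, and 0 passed the adjusted threshold. Psmb10 stood at 198, 175, 464 and 225 TPM in Cr1l tumours, against 521, 532 and 657 TPM in Vec tumours (log2 fold change -1.20, SE 0.32, limma adjusted p = 0.215). Without Cr1l 3 and Cr1l 4 it was -1.60 (limma adjusted p = 0.0432), 15 of the 16 genes were negative, and their median was -0.82. Psme1 stood at 252, 218, 418 and 308 TPM in Cr1l tumours, against 426, 447 and 449 TPM in Vec tumours (-0.60, SE 0.21, limma adjusted p = 0.270). Neither Psmb10 nor Psme1, both named for their small p, overlapped between the groups. Psmb8 (-0.66) and the peptide transporter gene Tap1 (-0.53) did overlap. In the list, 3 of 16 genes were lower with no overlap, against 6.67% of all genes tested. Without Cr1l 3 and Cr1l 4, Psme1 was at -0.91, Psmb8 at -1.08 and Tap1 at -0.91.

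Of 30 regulators of class I and interferon gamma targets, 21 had a positive log2 fold change, against 55.4% of all genes, with a median of 0.29. Leaving out Cr1l 3 and Cr1l 4, 10 of 29 tested genes were positive and the median was -0.11. With all 7 tumours, 3 of the 30 were higher and 1 lower at an unadjusted p under 0.05 by limma. The shares of all genes tested were 9.49% and 6.07%. Groups did not overlap in 3 that were higher and 1 that was lower, against 9.29% and 6.67% of all genes. By limma 0 passed the adjusted threshold. Nlrc5, the class I coactivator, stood at 78.3, 62.6, 142 and 73.2 TPM in Cr1l tumours, against 126, 118 and 159 TPM in Vec tumours, with overlap through Cr1l 3 alone (log2 fold change -0.65, SE 0.27, limma adjusted p = 0.316). Irf9, a factor of interferon signalling, stood at 49.2, 48.1, 58.7 and 48.5 TPM in Cr1l tumours, against 30.6, 33.0 and 36.5 TPM in Vec tumours (0.60, SE 0.13, limma adjusted p = 0.159). Socs1, an inhibitor of interferon signalling, stood at 4.39, 4.16, 16.4 and 6.20 TPM in Cr1l tumours, against 2.29, 1.63 and 1.86 TPM in Vec tumours (1.40, SE 0.43, limma adjusted p = 0.238). Relb, a subunit of NF-kappaB, also had no overlap and a log2 fold change of 0.78. Irf1 (0.55, unadjusted p = 0.141 by limma) overlapped. Nlrc5 was at -0.92, Irf9 at 0.54, Socs1 at 0.86, Relb at 0.30 and Irf1 at 0.12 without Cr1l 3 and Cr1l 4. H2-Q4, H2-T22 and Nlrc5 had negative fold changes and Irf9, Socs1 and Relb positive ones, with and without these tumours. Irf9, Socs1 and Relb were named for their small p and do not stand for the list. In the list, 9 of 30 genes were negative, and 19 of 29 without Cr1l 3 and Cr1l 4. In that fit 2 were higher and 8 lower at an unadjusted p under 0.05 by limma, against 1239 and 761 of 14474 genes.

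Of 31 other class I and class I-like genes, 10 were tested and 8 had a positive log2 fold change, against 55.4% of all genes. The median of the list was 0.51. At an unadjusted p under 0.05 by limma 1 was lower, H2-T10, against 6.07% of all genes. Fcgrt, the neonatal Fc receptor, stood at 25.2, 41.2, 266 and 243 TPM in Cr1l tumours, against 34.5, 20.3 and 19.6 TPM in Vec tumours (log2 fold change 1.88, unadjusted p = 0.0553 by limma), and Azgp1 (-0.93) and Procr (0.49) came next in p. With Cr1l 3 and Cr1l 4 left out, the values were 0.41 for Fcgrt, -0.33 for Azgp1 and 0.25 for Procr, and the median of the list was -0.06, with 3 of 8 tested genes positive. Of 12 genes of CD1 trafficking and lipid loading, 12 were tested and 0 reached an unadjusted p of 0.05 by limma, with a median of 0.22. The log2 fold changes of Gm2a (0.69), Psap (0.80) and Ctsl (0.71), which encode lysosomal lipid-binding proteins or enzymes, were among those of smallest p in that list, beside 0.24 for Cd1d1. They were 0.16, 0.025 and -0.011 without Cr1l 3 and Cr1l 4, which had the highest macrophage sums, beside -0.70 for Cd1d1, and the median of the list was 0.0067.

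Of 19 receptors and other genes of cells that read nonclassical class I, 11 were tested. Of these, 9 had a positive log2 fold change, against 55.4% of all genes, with a median of 1.14. In a fit without Cr1l 3 and Cr1l 4, which had the highest T cell, NK cell and macrophage sums, 4 of 9 tested genes were positive and the median was -0.37. Zbtb16, which encodes PLZF, a factor of NKT cells that other cells express too, was the 1 at an unadjusted p under 0.05. It stood at 0.16, 0.17, 1.38 and 0.65 TPM in Cr1l tumours, against 4.34, 5.14 and 0.69 TPM in Vec tumours (-1.33, SE 0.52, limma adjusted p = 0.293). Its order was unlike that of Cd1d1. Pirb, an inhibitory receptor of myeloid and B cells that binds class I, stood at 9.03, 18.5, 94.6 and 104 TPM in Cr1l tumours, against 18.1, 7.78 and 4.53 TPM in Vec tumours (log2 fold change 1.94, and 0.52 without Cr1l 3 and Cr1l 4). Cxcr6 encodes a chemokine receptor of NKT and other T cells. It stood at 1.32, 1.04, 15.1 and 5.49 TPM in Cr1l tumours, against 0.93, 0.64 and 0.33 TPM in Vec tumours (log2 fold change 1.55). The groups did not overlap, by a narrow margin at low levels, and Cxcr6 was not among the genes tested without Cr1l 3 and Cr1l 4. Pira2 had a log2 fold change of 1.46, or 0.35 without Cr1l 3 and Cr1l 4. The part of leukocyte numbers in these values was not tested. Of 9 NKG2D ligand genes, 3 were tested and 0 reached an unadjusted p of 0.05 by limma, with log2 fold changes of -0.48 for Raet1e, 0.42 for Raet1d and 0.31 for Ulbp1. They were -0.17, 0.70 and 0.40 without Cr1l 3 and Cr1l 4, and Raet1d then had an unadjusted p of 0.0123 by limma.

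**Figure D5:**
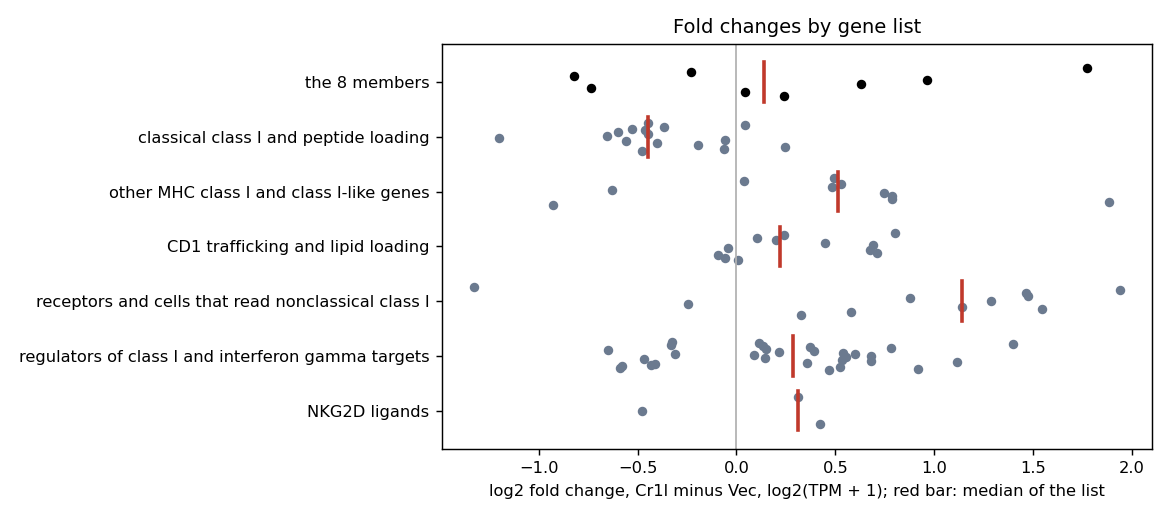
Log2 fold changes (log2(TPM + 1) scale, Cr1l minus Vec) of the 8 members and of the tested genes of each list, 1 point per gene, with a red bar at the median of each list and a grey line at 0. The median of all genes tested was 0.05. Peptide loading genes lie mostly under 0 (median -0.45), and receptor genes mostly over it (median 1.14). These medians were -0.82 and -0.37 without Cr1l 3 and Cr1l 4, which the plot includes.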

How the data were processed

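Poly-A RNA of 7 tumours (4 Cr1l, 3 Vec) was sequenced from libraries without strand, per the labels' protocols. RSEM and DESeq2 were used with mm39, per the submitters' processing notes. Not given in the sources used here are their versions, the annotation and how many reads each tumour had. The expression table deposited by the authors holds log2(TPM + 1). With the log undone, 28196 of 28233 genes have TPM with 2 decimals (tolerance 1e-06) and the TPM sum to 993520 to 996031 per tumour. TPM keeps no depth, so depth is unknown and no counting error is given. The table deposited by the authors lists, per gene, a mean over tumours of normalized counts (a signal), a log2 fold change, its standard error, a test statistic (a score) and p-values before and after adjustment. Its numerator is not named in the header and was read as Cr1l, from the sign of Cr1l itself and from r = 0.879 with the TPM fold changes over 14280 genes. In it, 27182 of 28369 identifiers matched a symbol and 10072 had no adjusted p. The deposited repertoire table was not used here.

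The 14954 genes averaging 1 TPM or more were fitted on log2(TPM + 1), a pseudocount of 1 that understates changes of low genes, with limma 3.58.1 in R 4.3.3 (group as the 1 term, variance trend). P-values are two-sided, adjusted by Benjamini-Hochberg over all genes tested, with a threshold of 0.05. The exact permutation test compared the absolute difference of means over the 35 ways to draw 4 of 7 tumours. The fit was tested on simulated data. Plots used Python 3.11.15 and matplotlib 3.10.9. The labels number the tumours 1 to 7 and do not say that each came from its own mouse, so p-values measure the spread between these tumours.

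The members and lists were chosen with earlier results of these data known. Named genes are the members, Cr1l, B2m, H2-K1, H2-D1, Nlrc5, Irf1, Tap1, Psmb8, the 4 genes of smallest p in each list and the 3 nearest genes of each member, without predicted genes. Some genes named by the rule are not reported here. H2-Q5, A930015D03Rik, Gm11131, Klrc1 and Klrd1 lie outside that rule, for shared sequence, overlap or role, and were named after their values were seen. Alternatives changed the pseudocount, the filter, the scaling and tumour weights, or left out tumours.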

Additional observations from a re-analysis of the deposited data

How the results depend on the processing

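Under 16 alternatives, of which 14 were planned and 2, which leave out Vec 6 and Vec 7 or Cr1l 3 and Cr1l 4 together, were added after seeing the data, H2-Q4 ranged from -1.04 to -0.61, H2-T22 from -1.19 to -0.66 and H2-T24 from 0.76 to 2.18 on the log2 scale. No member passed an adjusted p of 0.05 by limma in any of them. The lowest adjusted p by limma was 0.0609 for H2-Q4 and for H2-T22, both without Cr1l 3 and Cr1l 4, the 2 highest Cr1l tumours in these genes. Of 128 member values under an alternative, 14 had the opposite sign.

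The count of members higher at an unadjusted p under 0.05, which was 1, was 0 without Vec 6 and Vec 7, 0 without Cr1l 3 and Cr1l 4, and 0 to 1 with 1 tumour left out at a time. The count of members lower, which was 2, was 2 with any 1 tumour left out. It was 5 without Cr1l 3 and Cr1l 4 (H2-Q4, H2-T22, H2-T23, H2-M3 and Cd1d1), against 761 of the 14474 genes then tested. H2-T23, H2-M3 and Cd1d1 were highest in the tumours left out, so their lower values follow from the exclusion. Over all genes, the count higher at an adjusted p under 0.05, which was 0, was 4 with a pseudocount of 0.1, 2 with 5, 4 with median-of-ratios scaling, 2 without mitochondrial and globin genes, 6 with tumour weights, 1 without Vec 6 and Vec 7, 3 without Cr1l 3 and Cr1l 4, and 0 to 2 with 1 tumour left out. The count lower, which was 2, was 4 with a pseudocount of 5, 0 with no filter, 1 with a filter of 5 TPM, 6 with median-of-ratios scaling, 8 with tumour weights, 6 without Cr1l 3 and Cr1l 4, and 0 to 6 with 1 tumour left out.

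Signs turned for H2-M3 (0.04 as reported) to -0.014 with median-of-ratios scaling, -0.17 with tumour weights, -0.19 without Cr1l 3, -0.11 without Cr1l 4, -0.08 without Vec 6 and -0.068 without Vec 6 and Vec 7. For Cd1d1 (0.24) they turned to -0.023 with tumour weights and -0.21 without Cr1l 3. For H2-T23 (-0.23) the values were 0.04 without Cr1l 1 and 0.10 without Cr1l 2, and for Klrc1 (-0.25) 0.021 and 0.012. With 1 tumour left out at a time, the range was -0.57 to 0.10 for H2-T23, -0.21 to 0.59 for Cd1d1 and -0.71 to 0.021 for Klrc1. Without Cr1l 3 and Cr1l 4 they were -0.65 for H2-Q6, -0.28 for H2-Q7, -0.53 for H2-M3, -0.70 for Cd1d1, -0.70 for H2-Q5, -0.011 for Ctsl and -0.018 for Gm11131. Ulbp1 was -0.21 without Vec 6 and Vec 7. The cause was not tested. Median-of-ratios scaling moved the median of all genes by less than 0.1. No paired analysis was possible because the tumour numbers do not repeat across the groups.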
